A study of Mus musculus with 12 samples.

Results

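The genes described here are 10 members of bone morphogenetic protein (BMP) signalling and its transcriptional targets, taken by exact gene symbol from a table of 23352 gene rows. They are 4 secreted ligands (Bmp2, Bmp4, Bmp6 and Bmp7), 2 type I receptors (Bmpr1a and Bmpr1b) and the 4 ID genes (Id1, Id2, Id3 and Id4). Each had a row of its own. The tissue was neocortex, microdissected from mouse embryos at embryonic day 16, in 12 RNA-seq libraries. There were 4 libraries labelled homozygous Nfib knockout and 2 wild-type libraries in the line Nfib{tm1Rmg}(C57BL/6), and 4 libraries labelled homozygous Nfia knockout and 2 wild-type libraries in the line Nfia{tm1Rmg}(C57BL/6). NFIA and NFIB are nuclear factor I transcription factors of cortical progenitors, and the comparisons ask which transcripts differ when either is disrupted. The growth protocol in the labels names the Nfia allele for both lines, so groups follow titles, strain and genotype. Whether each library is a separate embryo or litter is not stated, nor is the extent of either allele.

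The table holds a single weighted average per gene and group in FPKM, fragments per kilobase of transcript and per set number of mapped fragments, so levels can be compared between genes, while the spread within a group and the depth are unknown. Each line has the authors' log2 fold of knockout over its own wild types with its p-value and q-value. A gene is called changed here where that q is under 0.05. Errors of folds were back-calculated from the deposited p-values, and 95% intervals are made from them without correction for the number of genes. Nfib transcript was at 9.12 FPKM in the Nfib knockouts and 134 FPKM in their wild types. In those knockouts Nfia transcript was higher, at 54.4 FPKM against 24.3 FPKM in their wild types. Its log2 fold there was 1.18 (q = 0.00207) from the authors' deposited table. Nfia transcript was at 28.2 FPKM in the group labelled Nfia knockout and 33.7 FPKM in its wild types, a log2 fold of -0.27 (q = 0.477) from the authors' deposited table. Nfix, another NFI gene, was at 108 FPKM in that group and 165 FPKM in its wild types (log2 fold -0.62, q = 0.00286 from the authors' deposited table), while Nfic passed in neither comparison. A whole-gene average does not check that label, and the group is called the labelled Nfia knockout throughout. All 10 neocortical markers looked for, among them Emx1, Emx2 and Tbr1, had transcript in every group, with sums of 1054 FPKM in the Nfib knockouts, 826 FPKM in their wild types, 921 FPKM in the labelled Nfia knockouts and 1048 FPKM in theirs.

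BMP ligands bind paired type I and type II receptor kinases on the cell surface. The type I receptor phosphorylates receptor SMADs, which enter the nucleus with SMAD4 and switch on target genes, the ID genes being classical ones. ID proteins are helix-loop-helix proteins without a DNA-binding region. They pair with E-proteins and so hold back proneural factors, which in the developing cortex favours progenitor maintenance over neuronal differentiation and takes part in the later turn to astrocytes. The cortical hem, the choroid plexus and the meninges are known sources of BMPs beside the neocortex.

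The promoters of Id2, Id3, Id4 and Bmpr1b are shown because these members passed the threshold in the Nfib knockouts, and NFI factors and SMADs are DNA-binding proteins with known motifs. They span 250 bases before to 50 after a RefSeq start in the build GRCm38.p6, which is not the build of the table. Capitals mark the core NFI motif TTGGC, on either strand (GCCAA on the other), and the GC-rich SMAD motif GGCGCC.
Id2, chr12:25096043-25096342, minus strand: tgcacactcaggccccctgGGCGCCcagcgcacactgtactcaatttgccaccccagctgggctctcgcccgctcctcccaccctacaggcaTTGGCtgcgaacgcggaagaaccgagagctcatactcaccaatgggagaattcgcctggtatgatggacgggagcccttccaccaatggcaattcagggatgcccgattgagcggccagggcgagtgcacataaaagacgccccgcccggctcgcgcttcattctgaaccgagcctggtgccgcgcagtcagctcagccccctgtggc
Id3, chr4:136143572-136143871, plus strand: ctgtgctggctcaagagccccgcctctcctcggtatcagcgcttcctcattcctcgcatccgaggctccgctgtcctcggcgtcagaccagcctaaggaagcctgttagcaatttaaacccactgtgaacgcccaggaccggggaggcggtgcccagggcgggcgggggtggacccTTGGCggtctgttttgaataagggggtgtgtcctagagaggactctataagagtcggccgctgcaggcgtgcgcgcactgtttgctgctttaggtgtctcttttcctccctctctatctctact
Id4, chr13:48260866-48261165, plus strand: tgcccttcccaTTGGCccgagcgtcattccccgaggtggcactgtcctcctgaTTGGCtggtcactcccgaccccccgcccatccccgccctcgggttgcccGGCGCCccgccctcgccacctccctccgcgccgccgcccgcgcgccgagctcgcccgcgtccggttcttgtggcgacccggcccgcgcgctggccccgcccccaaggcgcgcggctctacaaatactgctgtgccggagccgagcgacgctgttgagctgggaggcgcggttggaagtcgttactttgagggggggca
Bmpr1b, chr3:141982215-141982514, minus strand: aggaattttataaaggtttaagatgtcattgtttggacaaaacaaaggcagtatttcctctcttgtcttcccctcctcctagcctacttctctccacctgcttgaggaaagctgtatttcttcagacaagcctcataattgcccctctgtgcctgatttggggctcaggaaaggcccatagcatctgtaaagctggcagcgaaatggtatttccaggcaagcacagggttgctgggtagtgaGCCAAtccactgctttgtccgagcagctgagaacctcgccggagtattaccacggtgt
The core motif stood once in the promoters of Id2 and Id3 and at 2 places in that of Id4. It was present in 1 of the 3 promoters listed for Bmpr1b, the one shown. Among the other members searched, the promoter of Bmp4 also held the core motif, and those of Bmp6 and Bmpr1a did not. Of all 32851 promoters of 300 bases, 46.7% held it, so its presence does not set these genes apart. GGCGCC, held by 11.9% of all promoters, was present in those of Id2, Id4 and Bmpr1a, and did not overlap a core motif in the promoters shown. The full NFI site, TTGGC and GCCAA with NNNNN between them (0.0365% of promoters), and the palindrome GTCTAGAC (0.213%) were in none of the 9 member promoters searched on both strands. The E-box CANNTG, the site of proneural factors paired with E-proteins, was in 72.3% of all promoters, and among the ID promoters that of Id2 held it. In all 7 members matched the promoter table. Id1, Bmp2 and Bmp7 did not.

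The 4 ligands were near the floor of the data and neither knockout moved them past the threshold. Bmp7 was the most abundant ligand in every group, with 1.82 FPKM in Nfib knockouts and 1.69 FPKM in their wild types, against 1.69 FPKM in labelled Nfia knockouts and 1.56 FPKM in theirs. The 4 averages lay close together, and the log2 folds from the authors' deposited table were 0.12 (q = 0.998) in the Nfib comparison and 0.099 (q = 0.999) in the Nfia comparison. The implied intervals of these folds, -0.47 to 0.71 and -0.41 to 0.61, leave room for changes of either sign. Bmp6 stood at 0.482 FPKM in Nfib knockouts and 0.718 FPKM in their wild types. In the other line Bmp6 was at 0.416 FPKM in labelled Nfia knockouts and 0.311 FPKM in wild types. The Nfib-line wild types were thus the highest group for Bmp6, with log2 folds of -0.55 (q = 0.681) and 0.41 (q = 0.927) from the authors' deposited table. Bmp2 had 0.197 FPKM in Nfib knockouts and 0.249 FPKM in their wild types, and 0.306 FPKM in labelled Nfia knockouts and 0.133 FPKM in theirs. Bmp4 had 0.0725 FPKM in Nfib knockouts and 0.150 FPKM in their wild types, and 0.0344 FPKM in labelled Nfia knockouts and 0.0417 FPKM in theirs. Both carry a p of 1 in both comparisons of the authors' deposited table and count as not tested, so at these levels a difference was not detectable.

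**Figure D1:**
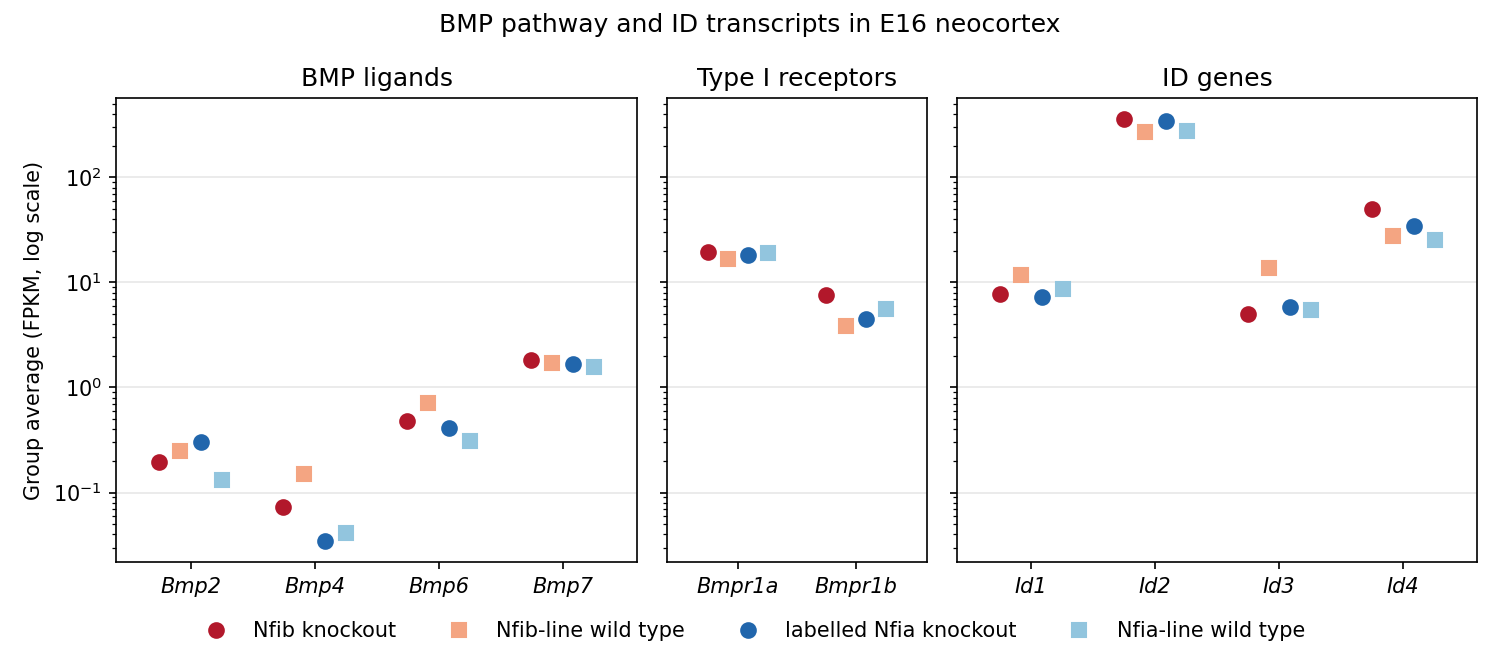
Group averages in FPKM (log axis) of the 4 BMP ligands, 2 type I receptors and 4 ID genes, with circles for knockout and squares for wild-type groups, a single average per group and no error. Levels run from 0.0344 FPKM for Bmp4 to 358 FPKM for Id2, and the Nfib-line wild types stand apart from the other 3 groups for Id3, at 13.6 FPKM.

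The 2 type I receptors among the members were well above the member ligands, and 1 of the 2 rose in the Nfib knockouts. Bmpr1b, a type I receptor expressed in neural progenitors, was at 7.54 FPKM in Nfib knockouts and 3.81 FPKM in their wild types, a 2.01-fold difference. It was at 4.46 FPKM in labelled Nfia knockouts and 5.63 FPKM in their wild types. The Nfib knockouts were the highest of the 4 groups and the Nfib-line wild types the lowest. The log2 fold from the authors' deposited table was 1.01 (implied error at most 0.25, q = 0.00207) in the Nfib comparison and -0.35 (implied error 0.18, q = 0.367) in the Nfia comparison. In bulk tissue, fewer cells of a type and less RNA per cell cannot be told apart, which holds for every gene here. Bmpr1a, the more abundant of these 2 members, was at 19.5 FPKM in Nfib knockouts and 16.8 FPKM in their wild types. It was at 18.0 FPKM in labelled Nfia knockouts and 19.2 FPKM in theirs. Its log2 folds of 0.23 (q = 0.571) and -0.100 (q = 0.990) from the authors' deposited table did not pass. Of the summed FPKM of Bmpr1a and Bmpr1b alone, Bmpr1b therefore made up 27.9% in Nfib knockouts and 18.5% in their wild types. It made up 19.8% in labelled Nfia knockouts and 22.7% in theirs. Type I receptors outside the members are not part of these shares. Among them Acvr1 was at 18.8 FPKM in Nfib knockouts and 25.8 FPKM in their wild types. It was at 19.4 FPKM in labelled Nfia knockouts and 25.3 FPKM in theirs. Its log2 folds of -0.44 (q = 0.0624) and -0.39 (q = 0.113) from the authors' deposited table did not pass.

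The ID genes divided into a pair that was higher and a pair that was lower in the knockout averages than in their own wild types, apart from Id3 in the Nfia line. In the Nfib knockouts Id4 and Id2 rose, Id3 fell and Id1 did not pass the threshold. In the labelled Nfia knockouts none of the 4 passed. Id4, an ID gene strongly expressed by neural progenitors, whose promoter held the core NFI motif at 2 places, was at 49.6 FPKM in Nfib knockouts and 27.7 FPKM in their wild types. It was at 34.3 FPKM in labelled Nfia knockouts and 25.4 FPKM in their wild types. Both knockout averages lay above both wild-type averages. The log2 fold of Id4 from the authors' deposited table was 0.87 (implied error at most 0.21, q = 0.00207) in the Nfib comparison, a 1.82-fold rise, and 0.42 (implied error 0.15, q = 0.0903) in the Nfia comparison.

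Id2, which is also made by many postmitotic cortical neurons, was by far the most abundant member, with 358 FPKM in Nfib knockouts and 267 FPKM in their wild types. In the other line it had 348 FPKM in labelled Nfia knockouts and 277 FPKM in wild types. Again both knockout averages lay above both wild-type averages. Among the 7 members at 1 FPKM or more in a group this held for Id2 and Id4, and Id1 had both knockout averages below both wild-type averages. Over the 12567 genes at that level, 14.4% had both knockout averages higher and 17.8% both lower, so such an order is common in these data. The log2 fold of Id2 from the authors' deposited table was 0.44 (implied error 0.15, q = 0.0484) in the Nfib comparison, just inside the threshold, and 0.32 (implied error 0.13, q = 0.265) in the Nfia comparison. The Nfib rise of Id2, 1.36-fold, did not pass at q 0.01 or with a 1.5-fold minimum.

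Id3, an ID gene expressed by glial progenitors and by vascular cells, was at 5.06 FPKM in Nfib knockouts and 13.6 FPKM in their wild types. It was at 5.88 FPKM in labelled Nfia knockouts and 5.48 FPKM in their wild types. The Nfib-line wild types were high and the other 3 groups lay together. In the authors' deposited table Id3 fell by 1.41 on the log2 scale in the Nfib knockouts (implied error at most 0.35, q = 0.00207), and its log2 fold in the Nfia comparison was 0.091 (implied error 0.24, q = 0.999). Id1, which is expressed in endothelium and in progenitors, was at 7.84 FPKM in Nfib knockouts and 11.8 FPKM in their wild types, and at 7.20 FPKM in labelled Nfia knockouts and 8.62 FPKM in theirs. The Nfib-line wild types were the highest group here too. Its log2 folds of -0.57 (q = 0.196) and -0.27 (q = 0.885) from the authors' deposited table did not pass.

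The order of levels within the family was Id2, Id4, Id1, Id3 in 3 groups, with Id3 above Id1 in the Nfib-line wild types, and without values per library it cannot be said whether Id1 and Id3 differ beyond their spread. Summed over the 4 ID genes there were 421 FPKM in Nfib knockouts and 320.4 FPKM in their wild types, and 395 FPKM in labelled Nfia knockouts and 316 FPKM in theirs. Id2 made up 85.1% of that sum in Nfib knockouts and 83.4% in their wild types, while Id4 made up 11.8% in Nfib knockouts and 8.64% in their wild types. The share of Id3 was 1.20% in Nfib knockouts and 4.23% in their wild types, against 1.49% in labelled Nfia knockouts and 1.73% in theirs.

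**Figure D2:**
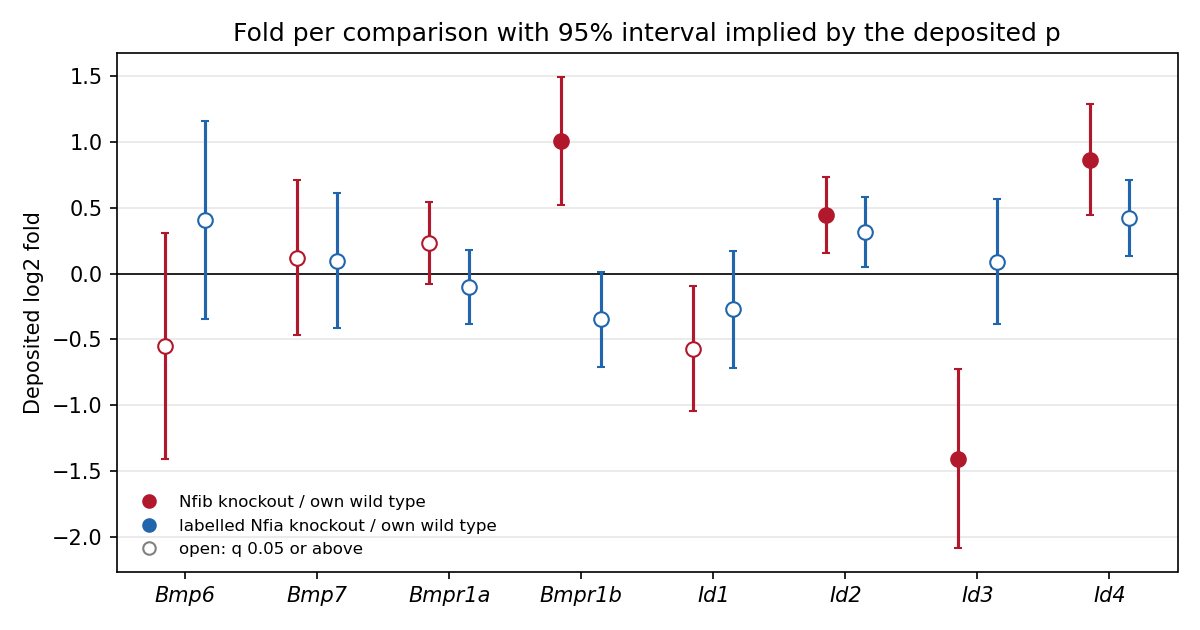
Deposited log2 folds of the 8 tested members in both lines, with 95% intervals made from errors back-calculated from the deposited p-values. Filled points are under q 0.05. In the Nfib comparison Bmpr1b, Id2 and Id4 are filled above 0 and Id3 below it, and in the Nfia comparison all points are open.

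Counted together, 4 of the 8 tested members passed in the Nfib comparison, 3 higher and 1 lower, where 5.39% of all 13729 tested genes passed, 2.13% higher and 3.26% lower. In the Nfia comparison 0 of 8 passed the q-values of Cuffdiff, where 3.79% of 13736 tested genes passed. At an unadjusted Cuffdiff p under 0.05 there were 3 of 8 (Id2, Id4 and Bmpr1b), where 10.1% of the tested genes were under it. The median log2 fold of the 8 members, computed from the authors' deposited table, was 0.18 in the Nfib comparison and 0.095 in the Nfia comparison, against -0.0049 and -0.0033 over all tested genes.

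Passing in the Nfib line and not in the other does not show a difference between the lines, so the difference of the folds was tested itself, approximately, from the implied errors. The Nfib fold minus the Nfia fold was 1.35 for Bmpr1b (interval 0.75 to 1.96, Benjamini-Hochberg q = 0.00111) and -1.497 for Id3 (interval -2.33 to -0.67, q = 0.0160), on the log2 scale. These 2 of 8 members passed, 1 above and 1 below 0, where 3.76% of 13554 genes did, 1.02% above and 2.74% below 0. For Id4 the difference was 0.44 (interval -0.063 to 0.95, q = 0.529) and for Id2 0.13 (interval -0.26 to 0.52, q = 0.967). A difference between the lines in Id4 or Id2 was thus not detectable with these errors, and the intervals do not show that the lines acted alike. For Id1, Bmp6, Bmp7 and Bmpr1a the q of the difference was 0.570 or higher.

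The wild-type groups of the lines differ for some members, and this bears on each fold. Over the 12567 genes at 1 FPKM or more, the log2 ratio of the Nfib-line to the Nfia-line wild types, each with 0.1 FPKM added, had a median size of 0.13. For Id3 that ratio was 1.29, a size reached by 0.660% of those genes, and between the knockout groups the ratio of Nfib to labelled Nfia was -0.21. For Bmpr1b the wild-type ratio was -0.55, a size reached by 4.66% of the genes, and the knockout ratio was 0.74. Against the Nfia-line wild types the log2 ratio of the Nfib knockouts came to -0.11 for Id3, 0.42 for Bmpr1b, 0.96 for Id4, 0.37 for Id2 and -0.13 for Id1, with no test possible. The values of Id4 and Id2 were thus similar against either wild-type group, that of Bmpr1b kept its sign at a smaller size, and that of Id3 was close to 0. For the labelled Nfia knockouts against the Nfib-line wild types, the ratio was 0.31 for Id4, 0.38 for Id2, 0.22 for Bmpr1b, -0.71 for Id1 and -1.19 for Id3. The signs of Bmpr1b and Id3 there were opposite to those against the group's own wild types.

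**Figure D3:**
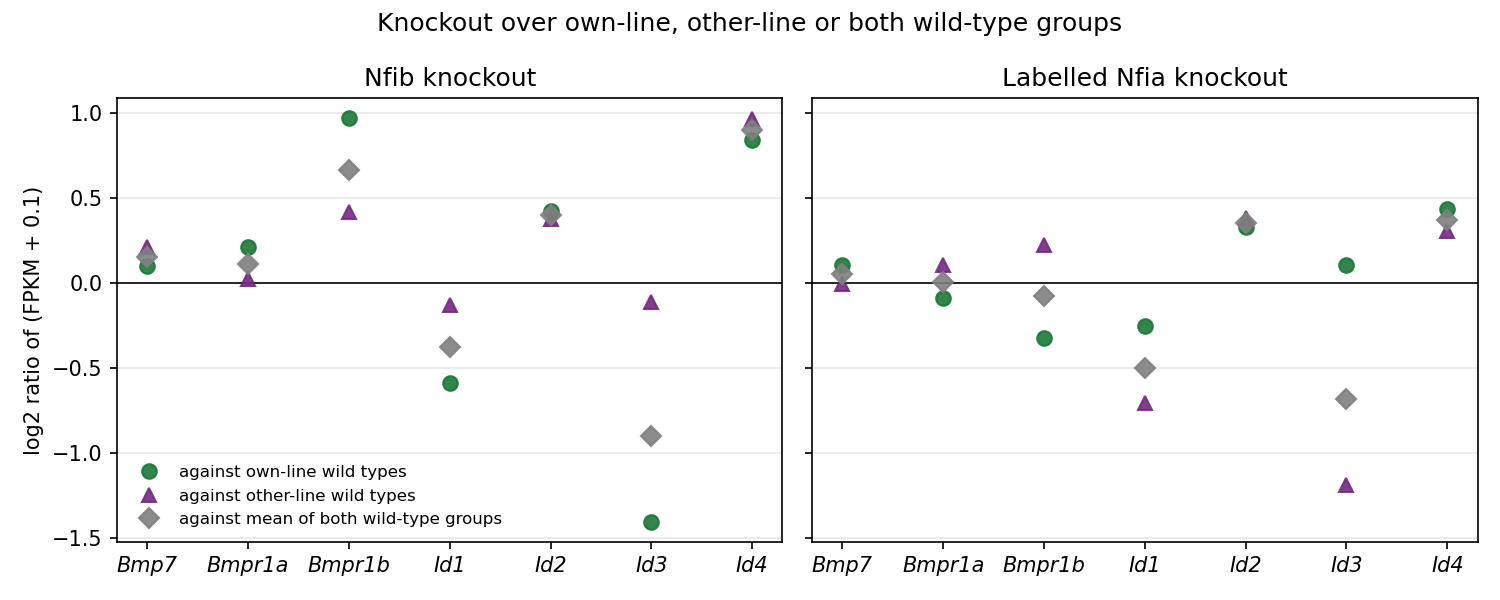
Log2 ratio of each knockout average over the own-line, other-line or mean wild-type average, with 0.1 FPKM added to each, for the 7 members at 1 FPKM or more. For the Nfib knockouts the points of Id4 lie between 0.84 and 0.96, and those of Id3 between -1.41 and -0.11.

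Sums of cell type markers were read in the same 4 groups. For the counts of markers below, the shares over all tested genes were 3.26% lower and 2.13% higher in the Nfib comparison. In the Nfia comparison they were 1.1% lower and 2.69% higher. The 9 meningeal fibroblast markers summed to 8.44 FPKM in Nfib knockouts and 16.5 FPKM in their wild types, against 11.6 FPKM in labelled Nfia knockouts and 9.43 FPKM in theirs. Of the 8 tested in the Nfib comparison 5 were lower and none higher. Much of these sums was Zic1, which passed in neither comparison. Zic1 was at 4.97 FPKM in Nfib knockouts and 6.07 FPKM in their wild types. In the other line Zic1 was at 8.92 FPKM in labelled Nfia knockouts and 6.74 FPKM in wild types. The 8 cortical hem markers summed to 9.46 FPKM in Nfib knockouts and 19.1 FPKM in their wild types, and to 12.4 FPKM in labelled Nfia knockouts and 17.5 FPKM in theirs. Of these, 3 of 7 tested were lower in the Nfib knockouts and 1 of 4 tested, Rspo3, in the labelled Nfia knockouts, with none higher. Much of the hem sums was Rspo3, at 6.13 FPKM in Nfib knockouts and 9.21 FPKM in their wild types. Rspo3 was at 8.31 FPKM in labelled Nfia knockouts and highest in their wild types, at 13.1 FPKM. The 8 endothelial markers summed to 54.1 FPKM in Nfib knockouts and 63.6 FPKM in their wild types, and to 54.4 FPKM in labelled Nfia knockouts and 53.4 FPKM in theirs. Of the 8 only Cldn5, a tight junction gene, was lower in the Nfib knockouts, at 19.8 FPKM against 29.2 FPKM in their wild types, and the other 7 did not pass. The Nfib-line wild types were the highest group for the meningeal, hem, endothelial and astrocyte sums, as they were for Id3 and Id1. Not all markers went with these sums. In the endothelial list Cldn5 differed most, and the averages of Pecam1, Cdh5, Flt1 and Kdr were higher in Nfib knockouts than in their wild types. Aldoc, the most abundant astrocyte marker, was at 62.0 FPKM in Nfib knockouts and 53.3 FPKM in their wild types. The part of these cells in the values of Id3 and Id1 was not tested. The 9 choroid plexus markers summed to 100.01 FPKM in Nfib knockouts and 1.92 FPKM in their wild types, most of it Ttr at 94.8 FPKM, and Folr1 was listed at 0 in those wild types. Of 6 tested, 5 (Ttr, Folr1, Kcne2, Clic6 and Aqp1) were higher in the Nfib knockouts. In the other line they summed to 2.24 FPKM in labelled Nfia knockouts and 1.09 FPKM in wild types, and Ttr, the 1 marker tested there, was higher (3.27-fold, q = 0.0134 from the authors' deposited table). Their part in Bmpr1b, Id2 and Id4 was not tested. Radial glia markers summed to 966 FPKM in Nfib knockouts and 960.5 FPKM in their wild types, against 822 FPKM in labelled Nfia knockouts and 732 FPKM in theirs. Of the 9 radial glia markers, Pax6 rose in the Nfib knockouts (log2 fold 0.63, q = 0.00385 from the authors' deposited table) and the others did not pass. Astrocyte markers summed to 126 FPKM in Nfib knockouts and 128 FPKM in their wild types, and to 99.6 FPKM in labelled Nfia knockouts and 100.7 FPKM in their wild types, with 3 of 9 lower in the Nfib knockouts, and 1 higher (Slc1a2) and 1 lower (Bcan) of 7 tested in the labelled Nfia knockouts. Pericyte and microglia markers spanned 38.8 to 44.5 FPKM and 18.3 to 19.3 FPKM over the 4 groups.

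The other pathway genes, with a list of E-proteins, proneural factors and oligodendrocyte lineage factors, were 72 genes in 6 lists. They gave 3 higher and 7 lower of 57 tested in the Nfib comparison, and 4 higher and 2 lower of 56 tested in the Nfia comparison. The E-protein list, not of the pathway itself, held 2 of the higher and 2 of the lower in the Nfib comparison. In the Nfia comparison none of that list passed. The shares over all tested genes were 2.13% higher and 3.26% lower in the Nfib comparison, and 2.69% higher and 1.1% lower in the Nfia comparison. The median log2 fold of the tested genes of the 6 lists, from the authors' deposited table, was 0.048 in the Nfib and -0.073 in the Nfia comparison.

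Of 12 further BMP and GDF ligands, 5 were tested in each comparison. In the Nfib knockouts 1 was lower, where 3.26% of all tested genes were. Gdf5, a ligand that signals mainly through BMPR1B, was at 0.355 FPKM in Nfib knockouts and 1.49 FPKM in their wild types, a log2 fold of -2.06 (q = 0.00207) from the authors' deposited table, and -1.10 against the Nfia-line wild types. It was also low in the labelled Nfia knockouts, at 0.446 FPKM against 0.875 FPKM in their wild types, without passing (log2 fold -0.98, q = 0.0881 from the authors' deposited table). In the labelled Nfia knockouts Bmp3, an atypical BMP that opposes signalling, was at 1.10 FPKM against 2.15 FPKM in their wild types, a log2 fold of -0.97 (q = 0.00286) from the authors' deposited table. Gdf10, the ligand also called BMP3B, was at 3.37 FPKM in labelled Nfia knockouts against 1.97 FPKM in their wild types, with a log2 fold of 0.76 (q = 0.0323) from the authors' deposited table. With the Nfib-line wild types as the base, the values were -0.25 for Bmp3 and -0.014 for Gdf10.

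Of 8 further receptors and co-receptors, all tested, Bmpr2 was higher in the Nfib knockouts, where 2.13% of all tested genes were higher. None of the 8 passed in the labelled Nfia knockouts, where 3 had an unadjusted Cuffdiff p under 0.05, against 10.1% of all tested genes. Bmpr2, a type II receptor that partners both member type I receptors, was at 26.7 FPKM in Nfib knockouts and 19.2 FPKM in their wild types. It was at 24.6 FPKM in labelled Nfia knockouts and 30.8 FPKM in theirs. Its log2 fold in the Nfib comparison was 0.49 (q = 0.0393) from the authors' deposited table, and -0.21 against the Nfia-line wild types. Of 12 tested SMADs and SMAD regulators 1 was lower in each line, where 3.26% (Nfib) and 1.1% (Nfia) of all tested genes were lower. Bambi, a pseudoreceptor that blocks BMP signals and is itself a BMP target, was at 0.560 FPKM in Nfib knockouts and 1.18 FPKM in their wild types (log2 fold -1.05, q = 0.0162 from the authors' deposited table). Zfp423, a zinc finger partner of SMADs, was at 8.45 FPKM in labelled Nfia knockouts and 11.6 FPKM in their wild types (log2 fold -0.47, q = 0.0419 from the authors' deposited table), and its value against the Nfib-line wild types was -0.090. The signal transducers Smad1, Smad5 and Smad4 and the inhibitory Smad6 and Smad7 did not pass in either comparison. In the Nfia comparison 4 of the 12, Zfp423 among them and all lower, had an unadjusted Cuffdiff p under 0.05, against 10.1% of all tested genes. The median log2 fold of the 12, from the authors' deposited table, was -0.27 in the Nfia and 0.062 in the Nfib comparison.

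Of 16 extracellular antagonists and modulators tested, 14 did not pass in each comparison. Their median log2 fold from the authors' deposited table was -0.11 in the Nfib and 0.12 in the Nfia comparison. Over all tested genes, 3.26% were lower in the Nfib comparison and 2.69% higher in the Nfia comparison. Of the 16, 2 were lower and none higher in the Nfib knockouts, and 2 were higher and none lower in the labelled Nfia knockouts. In the Nfib knockouts these were Chrd, which encodes the BMP-binding antagonist chordin, at 2.42 FPKM against 4.01 FPKM in their wild types, and Smoc1, a matricellular modulator, at 3.99 FPKM against 6.68 FPKM in those wild types. Their log2 folds from the authors' deposited table were Chrd -0.71 (q = 0.0438) and Smoc1 -0.72 (q = 0.00817). In the labelled Nfia knockouts they were Fst, which encodes the activin-binding follistatin, at 3.70 FPKM against 2.16 FPKM in their wild types, and the chordin-cleaving protease gene Tll1 at 0.607 FPKM against 0.247 FPKM in those wild types. Log2 folds from the authors' deposited table were Fst 0.76 (q = 0.0258) and Tll1 1.28 (q = 0.0104). Against the wild types of the other line the values were Chrd -0.23, Smoc1 -0.52, Fst 0.37 and Tll1 0.12.

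**Figure D4:**
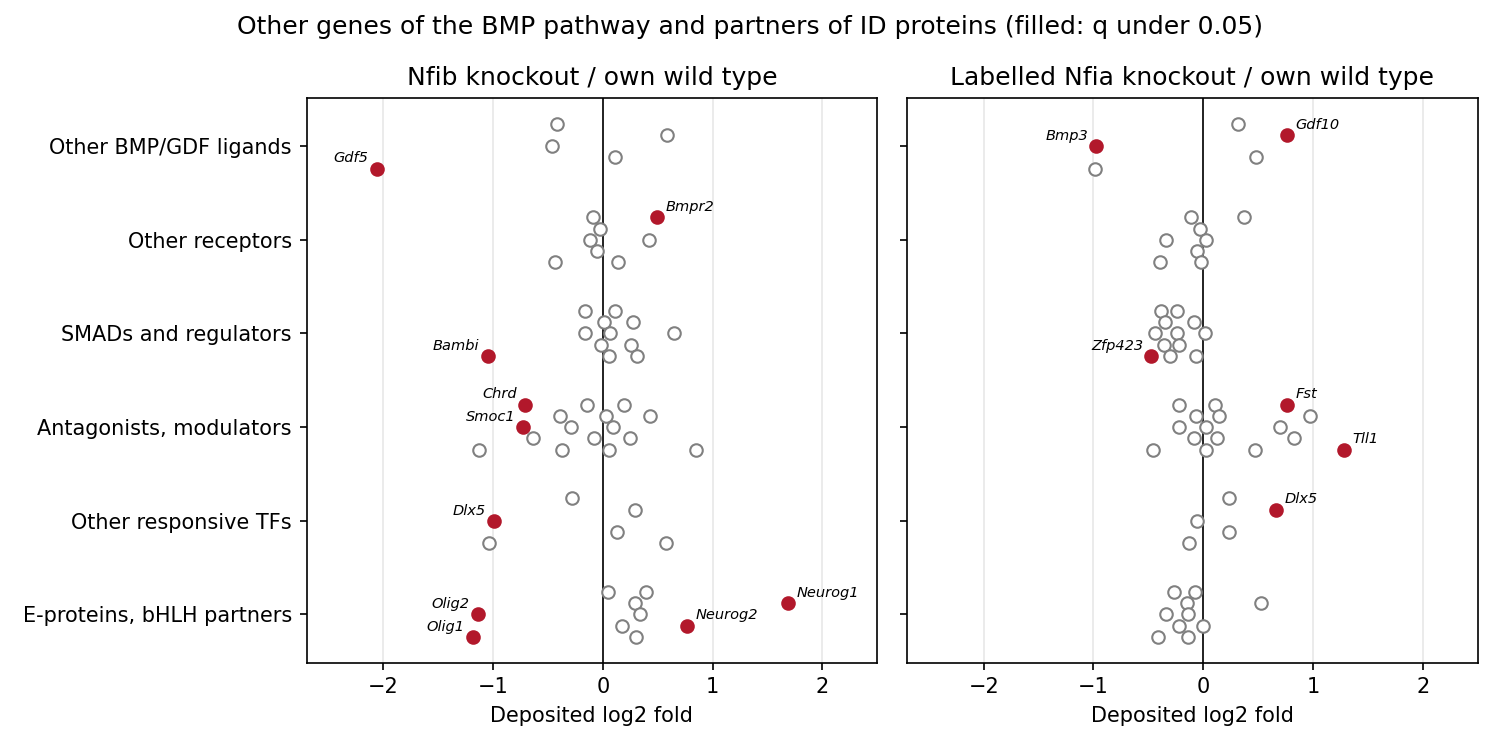
Deposited log2 folds of the tested genes in 6 lists, in rows, for the Nfib comparison on the left and the Nfia comparison on the right. The lists hold other pathway genes, and E-proteins with proneural and oligodendrocyte lineage factors. Filled points, under q 0.05, carry their gene names, and Dlx5 is filled below 0 in the Nfib comparison and above 0 in the Nfia comparison.

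Among 10 other BMP-responsive transcription factors, 6 tested in the Nfib and 5 in the Nfia comparison, Dlx5 alone passed, in opposite directions. Of all tested genes, 3.26% were lower in the Nfib comparison and 2.69% higher in the Nfia comparison. Dlx5, a homeobox gene of forebrain interneurons, was at 6.51 FPKM in Nfib knockouts and 13.2 FPKM in their wild types, and at 12.6 FPKM in labelled Nfia knockouts and 7.88 FPKM in theirs. Its log2 folds from the authors' deposited table were -0.99 (q = 0.00207) and 0.66 (q = 0.0309), and against the wild types of the other line -0.27 and -0.068. The homeobox genes Msx1 and Msx2, classical BMP targets, were at 0.108 FPKM or less in every group and were not tested.

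The list of E-proteins, proneural factors and oligodendrocyte lineage factors, 10 genes, had 2 higher and 2 lower members in the Nfib knockouts. In that comparison 2.13% of all tested genes were higher and 3.26% lower. None of the 10 passed in the labelled Nfia knockouts, where 2 had an unadjusted Cuffdiff p under 0.05, against 10.1% of all tested genes. Neurog1 and Neurog2, proneural factors of excitatory neurons, rose, with log2 folds from the authors' deposited table of Neurog1 1.69 (q = 0.00207) and Neurog2 0.77 (q = 0.00207). Neurog2 was at 57.6 FPKM in Nfib knockouts and 34.1 FPKM in their wild types, and Neurog1 at 3.11 FPKM in Nfib knockouts and 0.977 FPKM in their wild types. The oligodendrocyte lineage factors Olig1 and Olig2 fell, with log2 folds from the authors' deposited table of Olig1 -1.19 (q = 0.00207) and Olig2 -1.14 (q = 0.00207). Against the Nfia-line wild types these came to Neurog1 1.22, Neurog2 0.49, Olig1 -0.62 and Olig2 -0.64. The E-protein genes Tcf3, Tcf4 and Tcf12 did not pass, with log2 folds of 0.31 (q = 0.293), 0.048 (q = 0.998) and 0.34 (q = 0.186) in the Nfib comparison of the authors' deposited table.

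The genes whose pattern over the 4 group averages was most like that of each ID gene were found among 9613 genes at 5 FPKM or more in a group, by the root mean square difference of centred log2(FPKM + 0.1). For Id3 they were Dkk3, Zcchc24 and Gja1, with differences of 0.17, 0.20 and 0.20. For Id4 the nearest rows were that shared by Eif3j1 and Eif3j2 (0.081), then Apcdd1 (0.087) and Apln (0.097). For Id2 they were Eif1b (0.019), 5730508B09Rik (0.024) and Cenpk (0.031), and for Id1 Npas1 (0.070), Tst (0.083) and Sfxn5 (0.087). Over only 4 averages such likeness is a description.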

How the data were processed

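Per the labels' protocols, Trizol served to isolate the RNA of the day 16 neocortex, and libraries were made with a TruSeq kit. CASAVA 1.8.2, TopHat2 2.0.10, Cufflinks, Cuffdiff 2.1.1 and the build mm9 are named in the submitters' processing notes. The strand setting is not given in the sources used here. Reads of a gene and of an overlapping or antisense partner may therefore be mixed. The deposited table holds FPKM as weighted averages per group, and a log2 fold, a p-value and a q-value per line, per the file headers all made by the authors. It gives no value per library, so the spread within a group cannot be seen, and depth is unknown. Whether the libraries are separate embryos is not stated, so the p-values may measure technical spread. Fold cells hold spreadsheet errors in 1378 rows (Nfib) and 1354 rows (Nfia), none of them a member. Rows with a p under 1 count as tested, since the deposited q-values lie within 5.2e-07 and 7.3e-05 of Benjamini-Hochberg values over them. The smallest deposited p is 5e-05, so errors implied by it are upper limits.

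The implied error is the size of a fold over the normal deviate of its p, and is at least the running median of the errors of 501 genes with like FPKM. The difference of folds was divided by both errors combined and compared with the normal distribution, and Benjamini-Hochberg q-values were taken over all genes tested in both lines. This test is approximate, since its errors are implied by the deposited p-values. No spread between libraries could be computed from the group averages. The tools were pandas 2.3.3, numpy 2.4.6 and scipy 1.17.1 in Python 3.11.15, with matplotlib 3.10.9 for figures. Members and lists were chosen with earlier results of these data known. Some genes were left out of the lists and are not reported here. Named were all members, NFI genes, list genes under q 0.05, marker sums and the 3 genes most like each ID gene. Single marker genes, Grem1, Acvr1, Msx1, Msx2, the E-protein genes and the SMAD genes that did not pass were named outside this rule after their values were seen. Alternatives were q at 0.01 or 0.1, a filter at 1 FPKM, a 1.5-fold minimum, pseudocounts of 0.1 and 1, other wild types, rescaling and other errors. Symbols were matched to RefSeq promoters of GRCm38.p6.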

Additional observations from a re-analysis of the deposited data

Results flagged for a closer look

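The fold differed between the lines, by the approximate test of the difference with Benjamini-Hochberg q-values, for 2 members and 9 other pathway genes. The Nfib-line log2 fold minus the Nfia-line log2 fold was 1.35 for Bmpr1b (q = 0.00111) and -1.497 for Id3 (q = 0.0160). Among the other listed genes it was above 0 for the ligand gene Bmp3 (1.56, q = 0.00287), the proneural gene Neurog2 (1.04, q = 0.00123), the receptor gene Bmpr2 (0.83, q = 0.00489) and Smad4 (0.62, q = 0.0484). It was below 0 for the antagonist gene Grem1 (-2.10, q = 0.00899), Tll1 (-1.92, q = 0.0315), Dlx5 (-1.65, q = 4.89e-05), Olig1 (-1.19, q = 0.0178) and Gdf10 (-1.18, q = 0.0160). These 9 were among 56 genes of the lists tested, 4 above and 5 below 0, where 1.02% and 2.74% of all 13554 genes were called. Neurog2 and Olig1 are from the E-protein list and not of the BMP pathway itself. Grem1 and Smad4 passed in neither comparison alone. Against the other line's wild types, with 0.1 FPKM added, the log2 ratio of Grem1 was 0.27 for the Nfib knockouts, opposite in sign to -1.02 against their own, and -0.45 for the labelled Nfia knockouts, opposite in sign to 0.85 against their own. That of Smad4 was -0.062 for the Nfib knockouts and 0.058 for the labelled Nfia knockouts.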

How the results depend on the processing

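The count of members past the threshold in the Nfib comparison was 3 or 4 under each of the 4 alternatives run, Id2 being the member lost at q 0.01 and with a 1.5-fold minimum. In the Nfia comparison it stayed at 0 except at q 0.1, where it was 1 (Id4). The 2 members whose fold differed between the lines were Bmpr1b and Id3 with errors not raised, with a running median over fewer genes and over genes at 1 FPKM or more. No fold of a called member changed sign in the Nfib comparison under the alternatives run. Of the member folds of both comparisons, 14 moved by more than their implied error, or had none, against the other-line wild types, and 6 did not. Against the mean of both wild-type groups 11 moved in this sense and 9 did not. With a pseudocount of 0.1 or 1 and after rescaling, 4 moved each time and 16 did not. Those 4 were the folds of Bmp2 and Bmp4, which have no implied error. Calls over all genes in the difference test were 510, and 637 with errors not raised.

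No paired analysis was possible because the table gives group averages and no value per library. For the same reason fits leaving out each replicate were not run. Folds of members under 1 FPKM rest on values near the floor of the table.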
